A study of Mus musculus with 2 samples.

Results

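The genes Cxcl9, Cxcl10 and Cxcr3, 3 of the 32285 genes counted, were followed through the cell classes of 2 mouse pancreatic tumours. They were taken by symbol from the gene list, each had 1 row, and their unique molecular identifiers (UMIs, which tag single captured RNA molecules) were summed by cell class and library. Both tumours grew from KPC cells, a mouse pancreatic cancer line, injected into the pancreas. In one group the cells carried a control hairpin vector (KPC-shV), and in the other a hairpin directed at Zeb1 (KPC-shZEB1). Each group was 1 tumour of 1 mouse and 1 10x 3′ single-cell library, so mouse, tumour, library and group cannot be told apart. The study's text describes the mice as treated with gemcitabine, which the labels do not mention, and the mouse strain of these 2 tumours was not given in the sources used here.

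The shV library (labelled KPC-shV) gave 11398 cells with a median of 3720 UMIs, and the shZEB1-labelled library (labelled KPC-shZEB1) gave 12104 cells with a median of 4252. Levels are given in CPM, the UMIs of a gene per 1000000 UMIs of its cell class. The hairpin's target did not follow the label: Zeb1 stood in tumour-like cells at 166 CPM under the shV label and 187 CPM under the shZEB1 label, a ratio of 1.13 (95% interval 1.09 to 1.17). Each ratio divides the shZEB1-labelled value by the shV value, and its direction belongs to those 2 libraries only. Cells were classed by marker genes, and 9 classes had at least 50 cells in each library. In these 9 classes each marker was highest in its own class, except for 1 of 8 tumour markers and 2 of 10 monocyte-macrophage markers in each library. Of the barcodes, 46 occurred in both libraries, 36 of them among the kept cells of both.

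CXCL9 and CXCL10 are small secreted chemokines, and CXCR3 is the receptor through which they attract activated T cells and natural killer (NK) cells. Interferon gamma, made mainly by T and NK cells, induces both ligands, with the factor IRF1 among those that carry the signal to their genes. Cxcl10 also responds to type I interferon and to NF-kB, whereas Cxcl9 depends more strictly on interferon gamma. In tumours, macrophages and dendritic cells are well-known sources of both ligands, and CXCR3 is used by effector, helper and regulatory T cells.

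Cxcl9 (ENSMUSG00000029417) and Cxcl10 (ENSMUSG00000034855) are neighbours on the minus strand of chromosome 5 in build GRCm38, with 18558 bases between them. Cxcl9 spans chr5:92321347-92328079 and Cxcl10 spans chr5:92346638-92348889, each with 4 exons. Cxcr3 (ENSMUSG00000050232) lies apart from them at chrX:101731535-101734269 on the minus strand, with 2 exons. The third ligand of the receptor, Cxcl11, was not analysed here.

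The 250 bases before the start of each ligand gene are shown because the 2 promoters differ in the letters that interferon-activated factors and NF-kB are known to bind. They were read from RefSeq for GRCm38.p6 on the gene's strand, at chr5:92328080-92328329 for Cxcl9 and chr5:92348890-92349139 for Cxcl10. Capitals mark matches to the interferon-stimulated response element (ISRE, here GAAA and GAAA with 2 bases between) or to kB sites bound by NF-kB (here GGGA and TTCC with 1 or 2 bases between), searched on both strands.
Cxcl9: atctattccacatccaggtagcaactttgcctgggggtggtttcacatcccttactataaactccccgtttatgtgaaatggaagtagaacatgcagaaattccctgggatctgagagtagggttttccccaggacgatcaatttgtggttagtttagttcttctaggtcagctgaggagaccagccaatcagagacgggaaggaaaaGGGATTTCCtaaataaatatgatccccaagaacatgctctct
Cxcl10: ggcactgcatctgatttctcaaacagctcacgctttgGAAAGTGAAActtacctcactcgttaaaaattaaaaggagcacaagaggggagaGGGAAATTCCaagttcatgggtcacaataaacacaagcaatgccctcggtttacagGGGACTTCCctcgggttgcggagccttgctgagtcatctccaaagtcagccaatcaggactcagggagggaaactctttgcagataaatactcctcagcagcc

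The Cxcl10 sequence held an ISRE match at bases -213 to -204 and kB matches at -159 to -150 and -103 to -95, counted back from the transcription start. The Cxcl9 sequence held 1 kB match at -42 to -34 and no ISRE match. Over 32544 promoters of the same length, 2.98% held an ISRE match and 2.62% a kB match. The gamma-activated site, TTC and GAA with 3 bases between, held by 7.04% of promoters, was in neither window. These motifs were chosen after the sequences had been seen, and a match is a description of letters, not a site shown to be bound.

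Over all cells, Cxcl9 stood at 196 CPM in the shV library and 321 in the shZEB1-labelled library, a ratio of 1.64 (95% interval 1.61 to 1.67). Cxcl10 stood at 298 and 357, a ratio of 1.2 (1.18 to 1.22). Cxcr3 was rare, with 105 and 258 UMIs in all, or 1.04 and 2.17 CPM (ratio 2.09, 1.66 to 2.65). Cxcl9 thus differed more than Cxcl10, and the receptor had the largest ratio on the fewest counts. With 1 library per group no test between groups was possible, and every interval covers counting error only.

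The ligand and receptor differences lay in different places. With the levels of the shZEB1-labelled library and the class shares of the shV library, the ratio was 1.64 for Cxcl9 and 1.29 for Cxcl10. With the class shares alone exchanged it was 0.98 and 0.96. For Cxcr3 it was the other way round, at 1.23 from levels and 2.14 from class shares. T-like and NK-like cells, which carry the receptor, held 3.07% of the UMIs of the shV library and 7.37% of the other (460 and 1445 cells).

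Endothelial-like cells had the highest Cxcl9 level among the 9 classes in both libraries. Their level was 820.0 CPM in the shV library (95% interval 786 to 855) and 839 in the shZEB1-labelled library (797 to 882). These were 123 and 82 cells, and 5 cells held 54.0% and 55.9% of the class's Cxcl9 UMIs. Few vessel-lining cells thus set the class value.

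Tumour-like cells followed with 268 and 442 CPM of Cxcl9. Monocyte-macrophage-like cells had 243 and 387. Fibroblast-like cells had 131 and 226. In the shV library these classes and the dendritic-like one did not overlap in their intervals. Dendritic-like cells, whose role is to present antigen to T cells, had 83.1 and 308 CPM of Cxcl9, from 125 and 1463 UMIs.

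B-like cells were taken as the reference for RNA that enters a droplet from outside the cell. They held 29.0 CPM of Cxcl9 in the shV library and 69.7 in the shZEB1-labelled library. T-like cells had 30.1 and 61.1, NK-like cells 31.8 and 51.8, and granulocyte-like cells 38.9 and 100.5. In the shV library the intervals of granulocyte-like, NK-like, T-like and B-like cells overlapped from one to the next, so Cxcl9 in lymphocytes was read as background. That background was itself higher in the shZEB1-labelled library, with a B-like ratio of 2.40 (1.68 to 3.53).

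Monocyte-macrophage markers moved the same way as this background. Their summed level (10 markers, none at 0) in tumour-like cells was 743 CPM in the shV library and 1850 in the shZEB1-labelled library. In the monocyte-macrophage-like cells themselves it was 15505 and 23313. Endothelial-like cells held 641 and 2039, fibroblast-like cells 783 and 1966, and granulocyte-like cells 960 and 2525. The part of RNA from other cells in the ligand differences was not tested beyond the subtractions in the closing section.

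Cxcl10 reached further into granulocytes than Cxcl9. In the shV library it was highest in monocyte-macrophage-like cells, at 419 CPM (95% interval 410 to 427), and in endothelial-like cells, at 413 (389 to 438), and these 2 overlapped. Granulocyte-like cells, mostly neutrophils, came next at 304, above tumour-like cells at 269 and fibroblast-like cells at 217. In the shZEB1-labelled library endothelial-like cells were highest at 714, granulocyte-like cells (457) overlapped monocyte-macrophage-like cells (442), and tumour-like cells had 353. B-like cells had 41.8 and 75, so granulocyte-like cells stood well above the reference for Cxcl10 and close to it for Cxcl9.

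**Figure D1:**
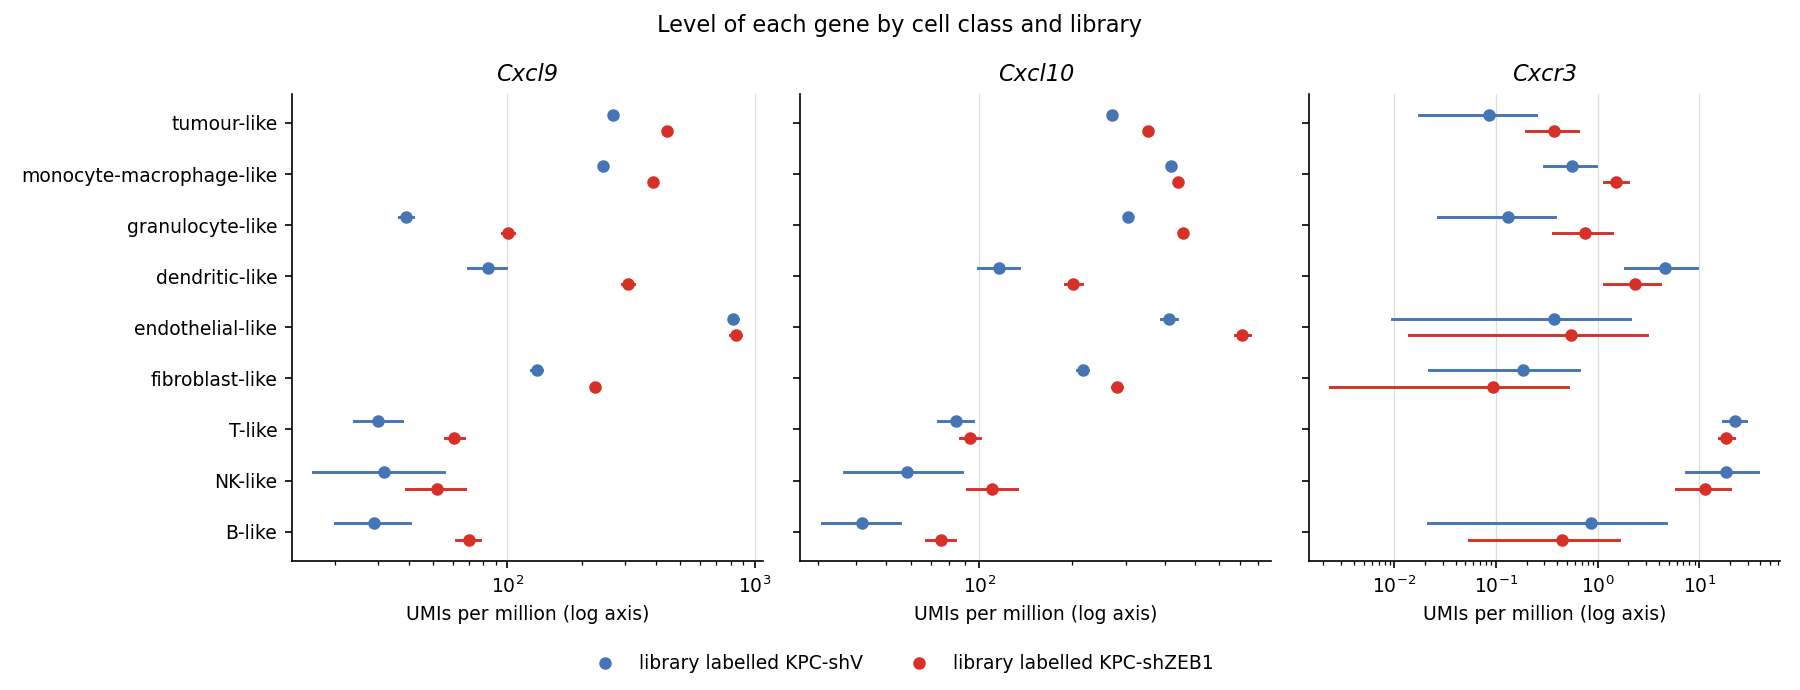
Level of Cxcl9, Cxcl10 and Cxcr3 in CPM of the class total (log axes with their own ranges) in 9 cell classes, with 1 point per library and its 95% Poisson interval. Cxcl9 is highest in endothelial-like cells (820.0 and 839), Cxcl10 is high in monocyte-macrophage-like cells (419 and 442), and Cxcr3 is highest in T-like (22.4 and 18.5) and NK-like cells (18.5 and 11.5).

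Shares of cells with a UMI gave the same picture of breadth. In the shV library 40.6% of monocyte-macrophage-like cells had a Cxcl9 UMI (median 13284 UMIs per cell), against 11.4% of B-like cells (median 3734). In the shZEB1-labelled library it was 65.1% (median 14506) against 23.1% (median 3418). After each cell was thinned to 1000 UMIs the shares were 10.1% and 19.6% for monocyte-macrophage-like cells, and 4.48% and 7.34% for B-like cells. At equal depth the intervals of the 2 libraries stayed apart in monocyte-macrophage-like cells (8.71% to 11.7% and 18.0% to 21.2%). In B-like cells they overlapped (2.41% to 7.54%, from 13 cells with a UMI, and 5.94% to 8.95%). At that depth no difference beyond counting error was shown there. Before thinning the B-like intervals lay apart (7.96% to 15.6% and 20.8% to 25.5%).

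Tumour-like and monocyte-macrophage-like cells together held most of the ligand RNA. Of the Cxcl9 UMIs, 47.4% in the shV library and 40.3% in the shZEB1-labelled library lay in tumour-like cells. Monocyte-macrophage-like cells held 28.5% and 39.0%. These classes held 34.7% and 29.2%, and 23.0% and 32.3%, of all UMIs of the 2 libraries, so tumour-like cells carried more than their share of Cxcl9 in both. Endothelial-like cells held 11.1% and 3.98% of the Cxcl9 UMIs, with close levels and fewer cells in the second library.

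For Cxcl10 the largest holder was the monocyte-macrophage-like class, with 32.3% and 40.0% of the UMIs. Tumour-like cells held 31.4% and 28.9%. Granulocyte-like cells held 23.1% and 14.3%, while they were 22.6% and 11.2% of all UMIs and numbered 6864 and 4273 cells. Fibroblast-like cells held 7.85% and 7.09% of Cxcl10, and dendritic-like cells 0.58% and 2.26%.

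**Figure D2:**
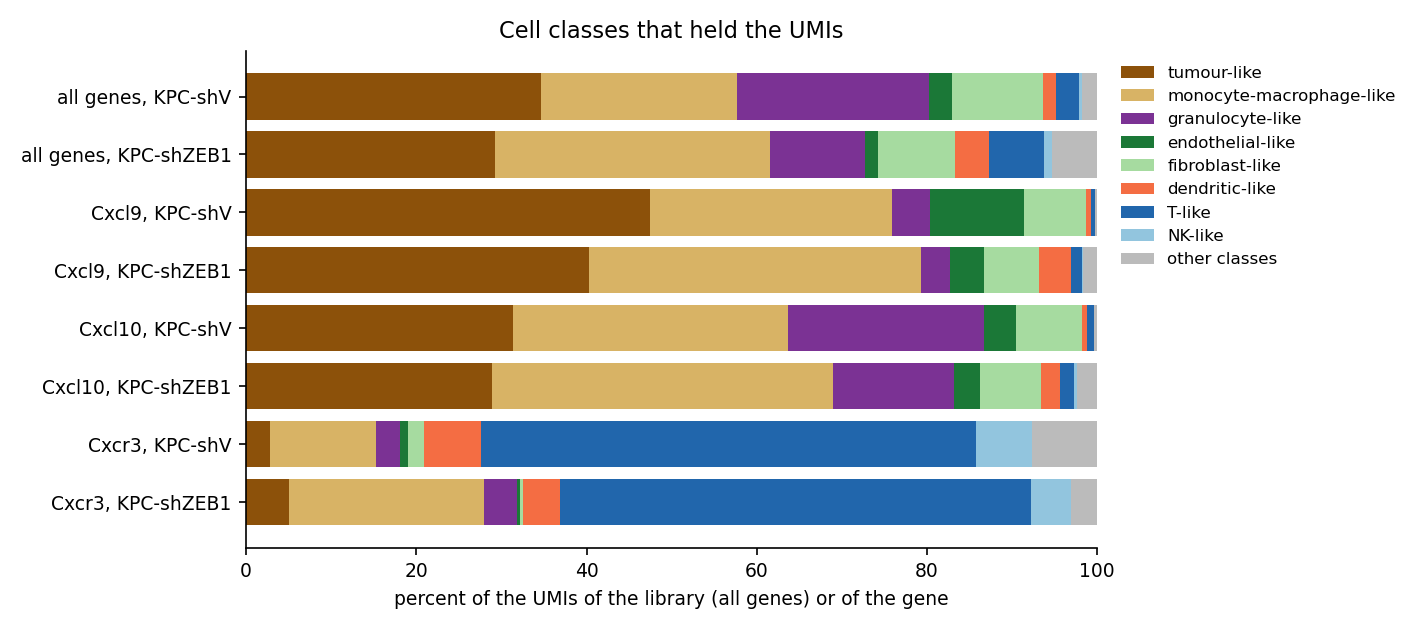
Percent of all UMIs, and of the Cxcl9, Cxcl10 and Cxcr3 UMIs, held by each cell class in each library, as stacked bars to 100 percent. Tumour-like and monocyte-macrophage-like cells hold most ligand UMIs, and T-like with NK-like cells hold 64.8% and 60.1% of the Cxcr3 UMIs.

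The mix of the 2 ligands separated the classes. UMIs at the 3′ end count molecules whatever the transcript's length, so the pair was compared as a share of UMIs. Cxcl9 made up 66.5% of the UMIs of the pair in endothelial-like cells of the shV library and 54.0% in the shZEB1-labelled library. In tumour-like cells it was 49.9% and 55.6%, in monocyte-macrophage-like cells 36.7% and 46.7%, and in fibroblast-like cells 37.7% and 44.8%. Granulocyte-like cells had the lowest Cxcl9 share of these classes, 11.3% and 18.0%. The share of Cxcl9 was higher in the shZEB1-labelled library in each of these classes but the endothelial-like one.

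Between the libraries, Cxcl9 was over 1.5-fold higher in the shZEB1-labelled library in 8 of the 9 classes, and its interval lay above 1 in 7 of them. The 8 include B-like, T-like and NK-like cells (ratios 2.40, 2.03 and 1.63), whose Cxcl9 was read above as background. The share of all tested genes over 1.5-fold higher was 12.9% in tumour-like, 10.1% in monocyte-macrophage-like, 24.4% in granulocyte-like, 11.5% in dendritic-like, 10.9% in endothelial-like, 7.04% in fibroblast-like, 8.96% in T-like, 12.5% in NK-like and 13% in B-like cells. Cxcl10 was over 1.5-fold higher in 5 of 9 classes, B-like (1.80) and NK-like cells (1.89) among them, with its interval above 1 in 8. Some of these values lay near the 1.5-fold mark: under an alternative setting Cxcl9 in monocyte-macrophage-like cells came to 1.48 and in fibroblast-like cells to 1.18, and Cxcl10 came to 1.42 in granulocyte-like and 1.49 in endothelial-like cells. Neither ligand was over 1.5-fold lower in any of the 9 classes, where 4.4% (tumour-like), 2.24% (monocyte-macrophage-like), 3.37% (granulocyte-like), 6.08% (dendritic-like), 6.2% (endothelial-like), 6.32% (fibroblast-like), 3.57% (T-like), 8.13% (NK-like) and 3.95% (B-like) of all tested genes were. The median of all tested genes in granulocyte-like cells was itself higher, by 0.24 on the log2 scale, so their values are best read against it. Among genes with at least 50 CPM the median ratio there was 1.06.

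The largest Cxcl9 ratio was in dendritic-like cells, at 3.70 (95% interval 3.08 to 4.48). Granulocyte-like cells had 2.58 (2.37 to 2.81), from 38.9 and 100.5 CPM against 29.0 and 69.7 in the B-like reference. With the B-like level subtracted the ratio was 3.10. With the lowest class of each library subtracted, B-like in the shV library and NK-like in the other, it was 4.9. The bulk sources, tumour-like and monocyte-macrophage-like cells, had 1.65 (1.61 to 1.69) and 1.59 (1.55 to 1.64). Fibroblast-like cells had 1.72 (1.61 to 1.84), while endothelial-like cells, the class with the highest level, had 1.02 (0.96 to 1.09).

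For Cxcl10 the endothelial-like ratio was 1.73 (95% interval 1.59 to 1.87), the dendritic-like 1.74 (1.48 to 2.06, but 4.57 with each library clustered alone) and the granulocyte-like 1.5 (1.45 to 1.56). Tumour-like cells had 1.31 (1.27 to 1.34) and fibroblast-like cells 1.29 (1.22 to 1.36), the latter turning to 0.999 without an upper UMI limit and to 0.902 at a finer clustering. In monocyte-macrophage-like cells, its main holder, Cxcl10 was 1.06 (1.03 to 1.08), within the middle 50 percent of all genes, and the ratio turned to 0.97 when the B-like level was subtracted. T-like cells had 1.11 (0.96 to 1.29), an interval that holds 1.

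**Figure D3:**
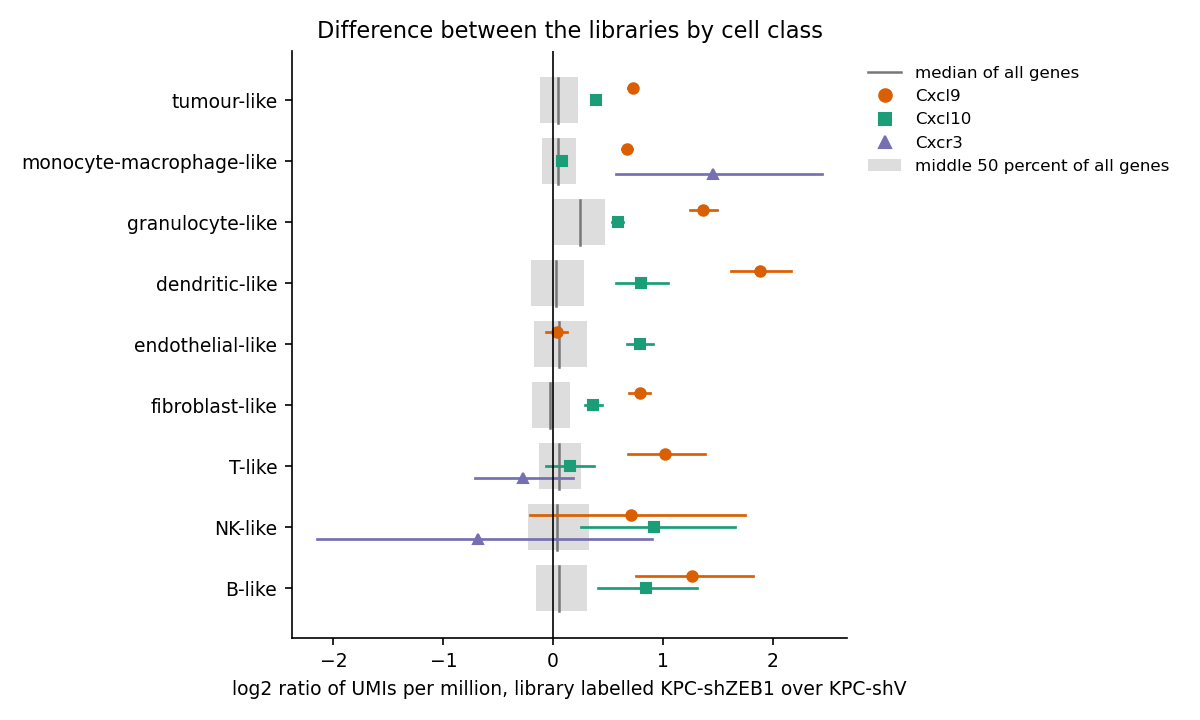
Log2 ratio of the level in the shZEB1-labelled library over that in the shV library for each gene and cell class, with 95% counting intervals, where the gene had at least 19 UMIs in both libraries together. The grey boxes mark the middle 50 percent of all genes tested in the class and the grey lines their median. Cxcl9 lies above the box in every class drawn but endothelial-like cells, where its ratio is 1.02, and Cxcl10 lies within it in monocyte-macrophage-like and T-like cells.

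Tumour-like cells formed 6 clusters, of which 3 had over 300 cells in each library. The cluster led by Lama3 and Lypd8 had the most Cxcl9, 337 CPM in the shV library and 575 in the shZEB1-labelled library. The cluster led by Cntn5 and Prg4 had 253 and 482, and that led by Dbf4 and S100a14 had 204 and 335. Cxcl10 was 218 and 287, 299 and 399, and 142 and 159 in the same order. Both ligands were thus higher in each of the 3 clusters, though the Cxcl10 interval of the last held 1 (ratio 1.12, 0.92 to 1.36).

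Shares of the tumour-like clusters did not carry the difference. Over the 5 clusters present in both libraries, the Cxcl9 ratio was 1.64. With the cluster shares of the shV library it was 1.84, and with the shares alone exchanged it was 0.82. A cluster led by Zfp804b and Ralyl was nearly confined to the shZEB1-labelled library, with 9 and 232 cells, and held 229 CPM of Cxcl9 and 399 of Cxcl10 there. The value of 0.82 uses its shV level of Cxcl9, 10.3 CPM from 3 UMIs. A cluster led by Rbp2 and Anxa10 had 23 cells, all in the shV library.

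Mononuclear phagocytes were split into 16 sub-clusters, formed without the 3 genes among the variable genes. Cxcl9 was higher, with an interval above 1, in 11 of them, lower in 2, and its interval held 1 in 3. Cxcl10 was higher in 9, lower in 5, and held 1 in 2. Cxcl9 was thus higher in most of these sub-clusters, while Cxcl10 differed both ways. The 11 include the sub-cluster led by Lyve1 and Bmp2 (24.7 and 60.1 CPM, ratio 2.43). Its levels were no higher than those of B-like cells, whose Cxcl9 ratio was 2.40. The share of all genes that were higher in each sub-cluster is not given here.

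A monocyte-like sub-cluster led by Ly6i and Nos2, the inducible nitric oxide synthase of activated macrophages, held the highest levels of both ligands among phagocytes. Cxcl9 itself was among the genes that led it, so its level there is a description of the sub-cluster. In the shV library it had 15 cells with 2949 CPM of Cxcl9, 78.9% of it in 5 cells, and in the shZEB1-labelled library 170 cells with 1493, 13.7% of it in 5 cells. Its Cxcl10 levels were 1221 and 1066. The Cxcl9 level was lower in the shZEB1-labelled library (ratio 0.51), yet these cells held 10.8% of its Cxcl9 UMIs against 3.84% in the shV library.

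The shares of the sub-clusters counted in the class value of Cxcl9. Over the 13 sub-clusters that monocyte-macrophage-like cells had in both libraries, the Cxcl9 ratio of 1.59 became 1.34 with the sub-cluster shares of the shV library. With only the shares exchanged it was 1.75. That value uses the shV levels, among them the 2949 CPM from 15 cells of the Ly6i and Nos2 sub-cluster. This sub-cluster had 170 cells in the other library, and the ratio without it was not computed. For Cxcl10 the corresponding ratios were 1.03 and 1.05, so neither the levels nor the shares moved it much.

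Among the larger macrophage sub-clusters, that led by Tmem26 and Vcam1 (149 and 174 cells) had 491 and 807 CPM of Cxcl9, a ratio of 1.64. The sub-cluster led by Ear2 and Asgr2 (167 and 306 cells) had 335 and 553. It was also higher in Cxcl10, from 234 to 409 (ratio 1.75). The first held 6.46% and 6.47% of the Cxcl9 UMIs of the 2 libraries, and the second 5.43% and 7.65%.

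Resident-like macrophages had little Cxcl9 beside their Cxcl10. The sub-cluster led by Lyve1, a marker of vessel-associated macrophages, and Bmp2 had 24.7 and 60.1 CPM of Cxcl9, no more than B-like cells, and 282 and 317 of Cxcl10. Cxcl9 made up 8.06% and 15.9% of the pair there. The sub-cluster led by Thbs1 and Pf4 had 88.5 and 188 of Cxcl9 and 297 and 378 of Cxcl10. Pf4 is another chemokine gene whose product binds CXCR3 in some forms.

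The tumour-macrophage-like sub-cluster led by Gpnmb and Mmp8 went the other way. Its Cxcl10 stood at 412 and 245 CPM, a ratio of 0.59 (95% interval 0.54 to 0.65), in 147 and 200 cells. Its Cxcl9 was 138 and 125, with an interval that holds 1 (0.79 to 1.04). Monocytes led by Chil3 and Ly6c2, an early monocyte state, had 780.1 and 1000.1 CPM of Cxcl10, and 50.4 and 385 of Cxcl9. In the shZEB1-labelled library 5 of the 92 cells held 75% of that Cxcl9.

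Conventional dendritic cells of both kinds had more Cxcl9 in the shZEB1-labelled library. The cDC2-like sub-cluster, led by Ctnnd2 and Cd209a, had 83.8 and 327 CPM (ratio 3.90, 49 and 163 cells). The cDC1-like sub-cluster, led by Ccser1 and Xcr1, the receptor that marks cross-presenting dendritic cells, had 5 UMIs in 12 cells and 458 UMIs in 35 cells, or 18.1 and 575 CPM. Of the 458, 74.2% lay in 5 cells, and Cxcl9 made up 88.9% of the pair. Mature dendritic-like cells, led by Syn3 and Fscn1, had 82.6 and 121 of Cxcl9 and 38.9 and 82.9 of Cxcl10.

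Granulocytes fell into 11 sub-clusters, and 2 of them stood out by Cxcl10. The interferon-like sub-cluster led by Ifit2 and Ifit1, antiviral genes induced by type I interferon, had 1446 and 2244 CPM of Cxcl10 in 568 and 203 cells. The sub-cluster led by Tgtp1 and Gbp2, guanosine triphosphatases induced by interferon gamma, had 1459.7 and 960.1 in 237 and 843 cells. The other 9 ranged from 63.3 to 245 in the shV library and from 67.8 to 408 in the shZEB1-labelled library. Leading genes were those most raised in a sub-cluster once it was formed, so they describe it and are not results.

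Cxcl9 set these granulocyte states apart. It was 38.3 and 82.1 CPM in the Ifit2 and Ifit1 sub-cluster, at the B-like level, and made up 2.58% and 3.53% of the pair. In the Tgtp1 and Gbp2 sub-cluster it was 171 and 157, a ratio of 0.92 (95% interval 0.75 to 1.14). Of the 2 granulocyte states high in Cxcl10, the one without Cxcl9 above the reference was the larger in the shV library and the one with Cxcl9 the larger in the shZEB1-labelled library.

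The change in granulocyte makeup bore on the class values. With the sub-cluster shares of the shV library, the granulocyte-like Cxcl10 ratio of 1.5 became 1.28, and with only the shares exchanged it was 1.58. For Cxcl9 the ratio of 2.58 became 2.26. Recently recruited-like granulocytes, led by Pglyrp1 and Cd300lb, had 204 and 408 CPM of Cxcl10 (ratio 2.00), while those led by Slc24a3 and Tgm1 had 139 and 91.7 (ratio 0.66).

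**Figure D4:**
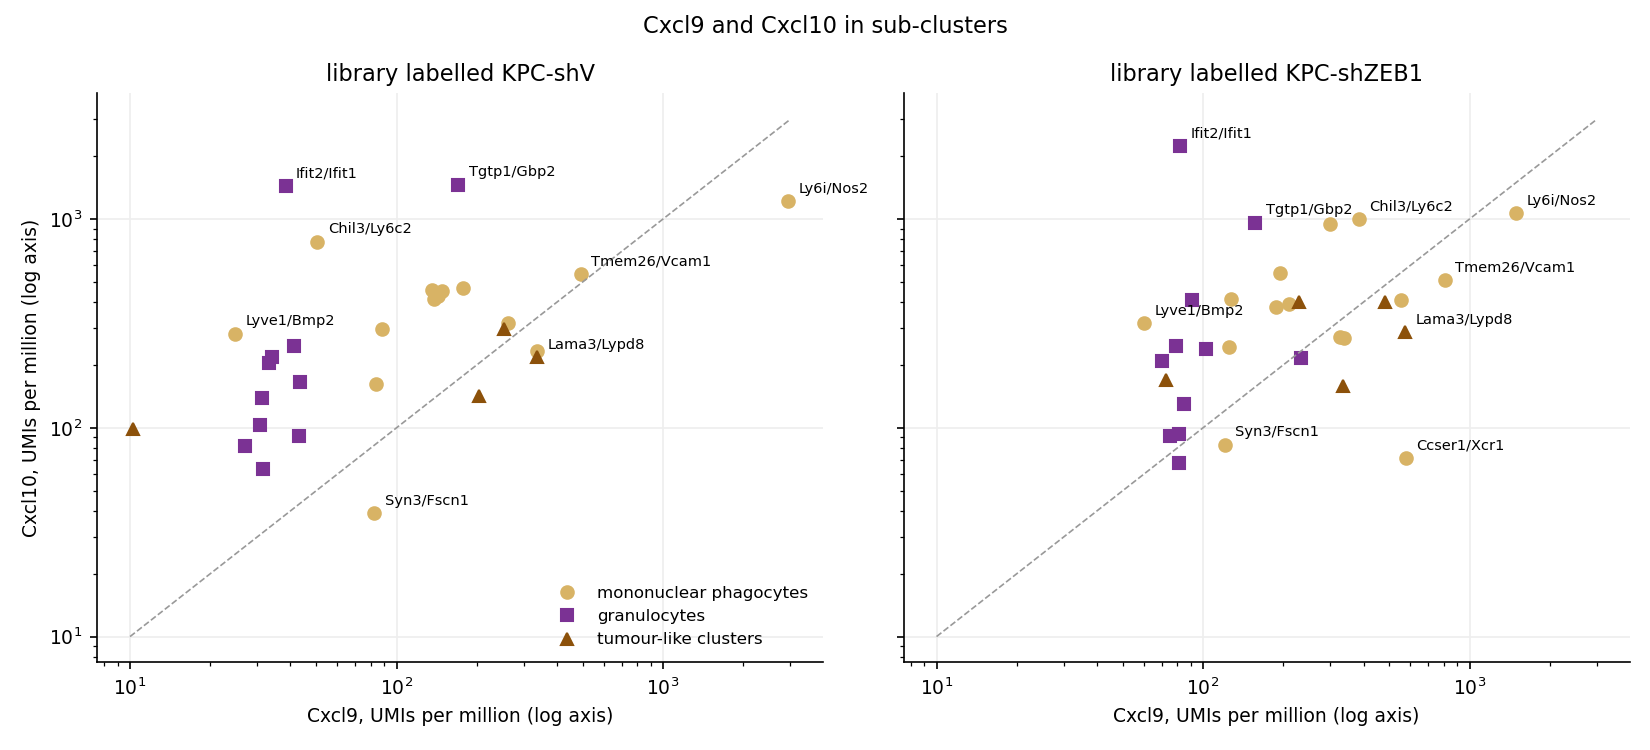
Cxcl9 against Cxcl10 in CPM (both axes log) for sub-clusters of mononuclear phagocytes and granulocytes and for tumour-like clusters, 1 panel per library, where the pair had at least 30 UMIs, without 1 phagocyte sub-cluster that is not reported. The dashed line marks equal levels, and the labels give the leading genes of some sub-clusters. Granulocytes led by Ifit2 and Ifit1 lie far above the line (38.3 and 1446 in the shV library), and monocytes led by Ly6i and Nos2 lie at the high end of both axes.

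In tumour-like and monocyte-macrophage-like cells, Cxcl10 was found more often in cells that also held Cxcl9. Cells were thinned to 1000 UMIs to set depth aside. Of monocyte-macrophage-like cells with Cxcl9, 36.2% had Cxcl10 in the shV library, against 19.7% of those without, and in the shZEB1-labelled library it was 37.9% against 22.4%. For tumour-like cells the shares were 30.2% against 10.8%, and 34.7% against 13.4%. Fibroblast-like cells showed no such gap beyond counting error, at 15.4% against 12.8% and 20% against 18.9%.

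Ligand RNA was concentrated in few cells, and less so in the shZEB1-labelled library. The top 10 percent of tumour-like cells held 88.2% of the class's Cxcl9 UMIs in the shV library and 75% in the shZEB1-labelled library. For monocyte-macrophage-like cells it was 85.1% and 69.1%. For Cxcl10 the values were 79.8% and 69.6% in tumour-like cells, and 63.8% and 56.4% in monocyte-macrophage-like cells.

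Of the genes induced by interferon gamma, some were over 1.5-fold higher in each of the 9 classes and none was over 1.5-fold lower. Of 10 such targets, all 10 were over 1.5-fold higher in tumour-like cells (12.9% of all genes were) and 6 in monocyte-macrophage-like cells (10.1%). In granulocyte-like cells 10 of 10 were (24.4% of all genes), and in dendritic-like cells 6 of 10 (11.5%). The counts were 4 of 9 in fibroblast-like (7.04% of all genes), 4 of 9 in T-like (8.96%) and 4 of 7 in NK-like cells (12.5%). The median log2 ratio of the list was 1.14 in tumour-like cells against 0.04 over all genes, and 1.10 in granulocyte-like cells against 0.24. In endothelial-like cells, where the Cxcl9 ratio was 1.02, 2 of 9 were over 1.5-fold higher (10.9% of all genes were). The lowest of the 9 still had a log2 ratio of 0.25, and their median was 0.44 against 0.06 over all genes. In B-like cells, taken above as the reference for outside RNA, 6 of 9 were higher (13% of all genes), with a median of 1.08.

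In tumour-like cells Gbp2, a guanylate-binding protein, stood at 113 and 277 CPM (ratio 2.45). Ciita, the master activator of MHC class II genes, had a ratio of 2.52, and Ido1, which degrades tryptophan, also 2.52. Irf1, a factor of the interferon gamma response, stood at 220.4 and 312 in tumour-like cells and at 95.5 and 166 in monocyte-macrophage-like cells. In dendritic-like cells, where the Cxcl9 ratio was largest, Iigp1, a guanosine triphosphatase, had 4.93 and Irf1 1.81.

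Type I interferon targets differed both ways, depending on the class. Of 9 measured in tumour-like cells none was over 1.5-fold higher and 4 were lower, against 4.4% of all genes lower, and their median log2 ratio was -0.46. The 4 were Ifit1 (ratio 0.58), Ifit3 (0.46), Rsad2 (0.57) and Cmpk2 (0.66), genes of the antiviral state. In granulocyte-like cells 1 of 9 was higher and 2 were lower, against 24.4% and 3.37% of all genes. Among the lower ones was Usp18, a brake on type I signalling, at 0.65. In monocyte-macrophage-like cells 9 of 9 stayed within 1.5-fold, and in fibroblast-like cells 6 of 9 were lower (6.32% of all genes). In endothelial-like cells, where the Cxcl10 ratio was 1.73, 4 of 9 were higher and none lower (10.9% of all genes higher), with a median log2 ratio of 0.32 against 0.06. Of 8 in dendritic-like cells 2 were higher and 1 lower (11.5% and 6.08% of all genes). Of 8 in T-like cells 1 was higher and 3 were lower (8.96% and 3.57% of all genes). B-like cells had 2 of 4 higher (13% of all genes) and NK-like cells 1 of 2 (12.5%).

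Upstream genes of both routes differed less. Of 8 genes for interferon gamma and its signalling, 2 were over 1.5-fold higher in tumour-like cells (12.9% of all genes were). In monocyte-macrophage-like cells 2 of 8 were (10.1% of all genes), with none lower in either class. The receptor gene Ifngr1 had ratios of 1.14 and 0.98 in these classes. Of the type I signalling genes, 7 were measured in tumour-like and 8 in monocyte-macrophage-like cells, and none passed 1.5-fold in either direction. Nor did any of 4 genes of the NF-kB route (Tnf, Tnfrsf1a, Nfkb1 and Rela) in these classes.

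The gene for interferon gamma was highest in T-like and NK-like cells, which held 433 of its 520 UMIs in the shV library and 1345 of 1622 in the other. Ifng stood at 150.4 and 158 CPM in T-like cells, a ratio of 1.05 (95% interval 0.94 to 1.18). In NK-like cells it stood at 60.9 and 116 (ratio 1.91, 1.21 to 3.12). There 5 cells held 60.9% and 67.8% of the Ifng UMIs. An Ifng UMI was found in 25.9% and 18.1% of the NK-like cells, with overlapping intervals. Over all cells it was 5.14 and 13.6, with more T-like cells (406 and 1274) and NK-like cells (54 and 171) in the shZEB1-labelled library. The level of the T-like class was thus close in both libraries, while the cells were more numerous in the second. In that class 5 cells held 46.3% and 42.6% of the Ifng UMIs. Its sub-clusters differed both ways. Cycling cells had 91.9 and 432 CPM (ratio 4.70), and CD4 T-like cells led by Dgki and Hs6st3 had 807 and 473 (0.59).

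Other parts of the axis differed unevenly. Of the 4 measured, 2 were over 1.5-fold higher in monocyte-macrophage-like cells (10.1% of all genes were) and none lower. One was Ccl5, a T cell chemokine, with 179 and 324 CPM there and 1170.4 and 1073 in T-like cells. Pf4 stood at 711 and 543 in monocyte-macrophage-like cells, a ratio of 0.76. Ackr1, the scavenging chemokine receptor of venules, stood at 163 and 72.3 in endothelial-like cells, a ratio of 0.44. Dpp4, the protease that trims these ligands, was 76.7 and 83.5 in T-like cells.

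T-like cells held most of the receptor RNA. Cxcr3 stood at 22.4 CPM in the shV library (61 UMIs, 95% interval 17.1 to 28.7) and 18.5 in the shZEB1-labelled library (143 UMIs, 15.6 to 21.8). NK-like cells had 18.5 (7 UMIs) and 11.5 (12 UMIs), which overlapped the T-like level in both libraries. The T-like ratio was 0.83 (0.61 to 1.14) and the NK-like 0.62 (0.23 to 1.86), so no difference in level was detectable at this depth. T-like and NK-like cells together held 64.8% and 60.1% of the receptor's UMIs.

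A Cxcr3 UMI was found in 12.3% of T-like cells in the shV library (median 5372 UMIs per cell) and in 9.58% in the shZEB1-labelled library (median 4877). In granulocyte-like cells, the reference for the receptor, it was 0.04% (median 3147) and 0.23% (median 2914). At 1000 UMIs per cell the T-like shares were 2.46% and 2.59%, with overlapping intervals. No T-like or NK-like cell had more than 4 Cxcr3 UMIs, so a cell without one was not shown to lack the receptor.

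The sub-clusters of T and NK cells differed in their receptor level. A sub-cluster led by Klra1 and Klra6 held the most UMIs, 13 and 42, or 28.8 and 32.6 CPM in 73 and 242 cells. CD4 T-like cells led by Cd40lg and Tnfsf8 had 32.1 and 39.5, and regulatory T-like cells led by Frmd5 and Foxp3 had 33.6 and 36.8. These 3 had at least 30 UMIs over both libraries, with ratios of 1.13, 1.23 and 1.10, and each interval held 1.

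Naive-like T cells had lower receptor levels than the 3 sub-clusters above, on few UMIs. Those led by Fam241a and Dapl1 had 16.5 and 13.3 CPM (6 and 13 UMIs). Those led by St8sia6 and Trib2 had 1 UMI in 29 cells and 0 in 158. Another CD4 T-like sub-cluster, led by Dgki and Hs6st3 (37 and 85 cells), was also low, at 11.4 and 6.81 (3 and 4 UMIs). CD8 T-like cells led by Gm156 and Atp2b2 had 14.1 and 4.36 (5 and 5 UMIs). A small CD8 T-like group led by Gzmk, a granzyme of memory-type effector cells, had 49.4 and 60.6 (1 and 7 UMIs). Gamma-delta T-like cells led by Il17a and Il23r had 39.6 and 6.83 (7 and 2 UMIs), a ratio of 0.17 with the interval 0.02 to 0.91. The 3 mast-like and 7 ILC2-like cells of the shV library and the 21 and 19 of the other had no Cxcr3 UMI.

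**Figure D5:**
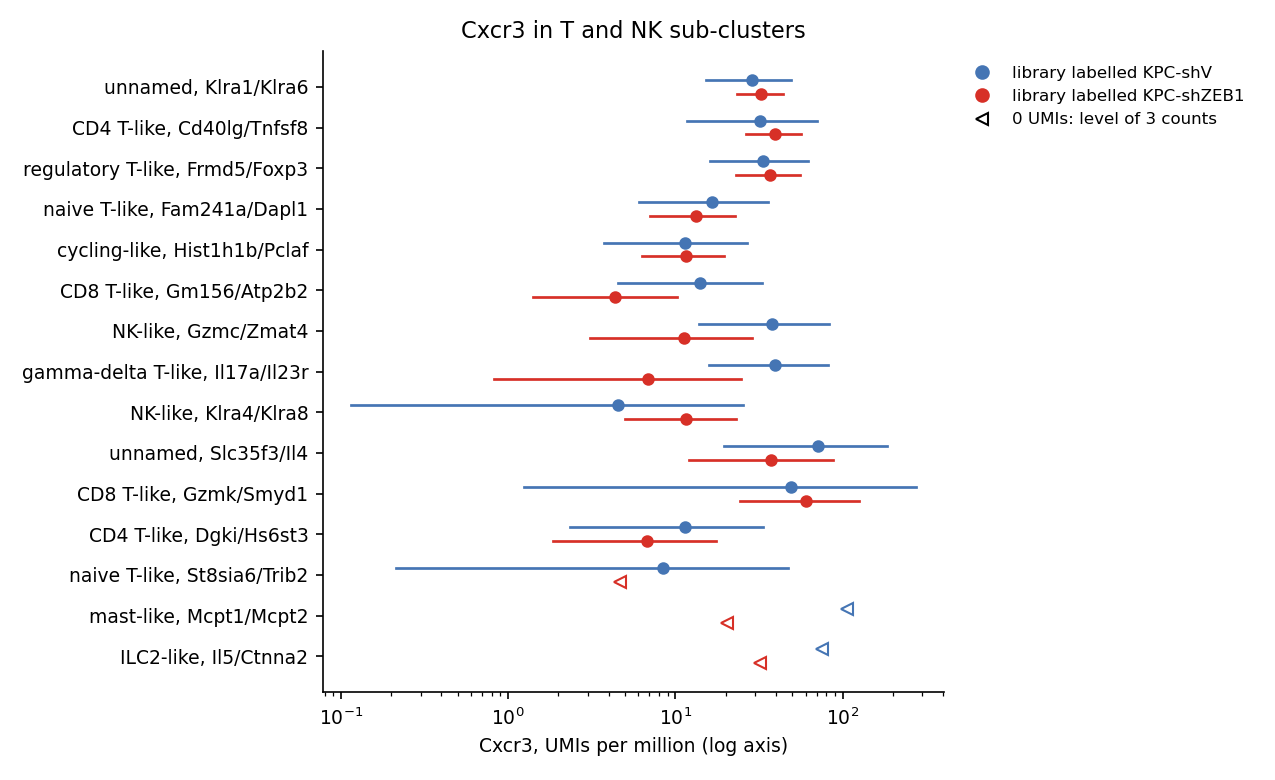
Cxcr3 in CPM (log axis) in the sub-clusters of T and NK cells, 1 point per library with its 95% Poisson interval, ordered by total UMIs. Open triangles mark the level that 3 counts would give where none was seen. The points of the sub-clusters led by Klra1, Cd40lg and Frmd5 with Foxp3 lie between 28.8 and 39.5 in both libraries. They lie above the naive-like points, on few UMIs in the shV library.

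Cells with and without a Cxcr3 UMI had Ifng at close shares. Of 55 T-like and NK-like cells with one in the shV library, 14.5% had an Ifng UMI (median 5966 UMIs per cell), against 18.3% of 405 without Cxcr3 (median 5386). In the shZEB1-labelled library it was 12.8% of 133 (median 5128) against 16.5% of 1312 (median 4915). The intervals of the 2 shares overlapped in each library.

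Other genes that place and program lymphocytes were close in T-like cells. Of 11 such genes 1 was over 1.5-fold higher and 1 was lower, against 8.96% and 3.57% of all genes, with a median log2 ratio of 0.03. Tbx21, the T-bet factor that drives Cxcr3, stood at 124 and 116 CPM. S1pr1, which lets T cells leave tissue, was the one higher (ratio 1.54), and Ccr2, a receptor for monocyte chemokines, the one lower (0.65). Cxcr6, the receptor for CXCL16, was 187 and 141 (ratio 0.75).

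Outside lymphocytes the receptor was clearest in dendritic cells. Plasmacytoid dendritic-like cells, known producers of type I interferon, had 7 UMIs in 15 cells and 5 in 39, or 52.3 and 15.1 CPM. The cDC1-like sub-cluster had 7 and 9 UMIs, or 25.4 and 11.3 CPM, with a UMI in 33.3% of 12 and 20% of 35 cells, against 0.04% and 0.23% of granulocyte-like cells. T markers (8 genes summed) were at 7.26 and 41.4 CPM in the cDC1-like cells, against 3581 and 3398 in T-like cells. They held 3500 and 273 Cxcr3 UMIs per 1000 T-marker UMIs, where T-like cells held 6.25 and 5.45.

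Monocyte-macrophage-like cells had 13 Cxcr3 UMIs in the shV library and 59 in the shZEB1-labelled library, or 0.56 and 1.53 CPM (ratio 2.75, 1.49 to 5.46). Of the 59, 19 lay in the resident-like sub-cluster led by Lyve1 and Bmp2, in 18 of its 338 cells, at 5.57 CPM, against 1 UMI in 204 cells (0.53) of the other library. That sub-cluster held 110 Cxcr3 UMIs per 1000 T-marker UMIs in the shZEB1-labelled library, with T markers at 13.2 and 50.4 CPM. The resident-like sub-cluster led by Fcrls and Ptprm had 8 and 8 UMIs (3.61 and 2.39 CPM). Of the classes with 30 Cxcr3 UMIs over both libraries, monocyte-macrophage-like cells were thus over 1.5-fold higher (10.1% of all genes were) and T-like cells were not. Tumour-like cells had 3 and 13 UMIs and granulocyte-like cells, the reference for the receptor, 3 and 10. On these few UMIs the reference was also higher in the shZEB1-labelled library, at 0.13 and 0.75 CPM (ratio 5.73, 1.48 to 32.4). T markers in monocyte-macrophage-like cells stood at 14.2 and 52 CPM. How much RNA from other cells added to the Cxcr3 ratio of monocyte-macrophage-like cells was not tested. The tumour-like cluster led by Cntn5 and Prg4 held 4.85 and 6.16 Cxcr3 UMIs per 1000 T-marker UMIs, the same order as in T-like cells.

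Across the 18 sums of a class in a library, each gene was set beside the genes with the most similar pattern among 16630 genes (Pearson correlation of log2 levels, as a description, since the sums share 2 libraries). For Cxcl9 these were Insyn2a (r = 0.98), Gm4951 (0.96), an interferon-induced guanosine triphosphatase gene, and Soga1 (0.94), with Cxcl10 at 0.81. For Cxcl10 they were Ly96 (0.94), the partner of the endotoxin receptor TLR4, Wdfy3 (0.93) and Parp12 (0.92). For Cxcr3 they were Cst7 (0.99), a protease inhibitor of cytotoxic cells, Ifngr1 (0.97) and Cd226 (0.95), an activating receptor of T and NK cells, with Ifng at 0.89.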

How the data were processed

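Per the file headers and the methods, the authors aligned reads of 1 library per group to mm10 with Cell Ranger 7.0.1 and deposited raw UMI counts per gene and barcode. Whether intron reads were counted was not stated. Barcodes were kept with 500 or more genes, between 1000 and 60000 UMIs, and no more than 15% of UMIs from mitochondrial genes. The libraries held 12594 and 13271 barcodes (KPC-shV, KPC-shZEB1), and 11713 and 12447 passed. Cells with a Scrublet score over 0.2 were removed as doublets (315 and 343). Both libraries were clustered together without batch correction (scanpy 1.11.5, 3000 variable genes, 30 components, 20 neighbours, Leiden resolution 1 with leidenalg 0.10.2), and clusters were named by marker lists. The 3 genes and the listed genes were kept out of the variable genes. T and NK cells and mononuclear phagocytes were clustered again at resolution 1.5, and granulocytes at resolution 1. Genes named are the 3, those of 7 lists and the 5 most similar in pattern, described by the first 3. Members and lists were chosen with earlier results of these data known.

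UMIs were summed by class and library and divided by the class total. Levels have exact Poisson, ratios exact conditional and shares Clopper-Pearson 95% intervals, which cover counting error only. No test was run, since neither group had a replicate. A gene entered a list count or the background with at least 30 UMIs in the class over both libraries, and a fold of 1.5 was the mark for higher or lower. Likeness used log2(level + 1). Alternatives changed the UMI limits, doublet removal, clustering, averaging and background RNA. Coordinates are from the GENCODE annotation of GRCm38, and promoters from RefSeq GRCm38.p6. Some items, 1 phagocyte sub-cluster among them, are not reported here, though counts over sub-clusters and lists include them. Calculations were checked on simulated data.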

Additional observations from a re-analysis of the deposited data

Results flagged for a closer look

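A cluster led by the digestive enzyme genes Pnlip and Try4 met the markers of no class and entered no comparison, with 6 cells in the shV library and 298 in the shZEB1-labelled library. In the latter it held 121 CPM of Cxcl9 and 593 CPM of Cxcl10, both above the B-like levels of 69.7 and 75 CPM. Its Cxcl9 came from 97 UMIs and its Cxcl10 from 476 UMIs in 27.9% of its cells.

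Cxcl9 was higher, with an interval above 1, in 30 of 42 tumour-like clusters and sub-clusters with at least 30 UMIs. Of the 30, 4 were T and NK sub-clusters, and Cxcl9 in lymphocytes was read above as background. Cxcl9 was lower in 2 of the 42. One of the 2 was the phagocytes led by Ly6i and Nos2 (ratio 0.51). The difference between them and the rest was not tested.

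Cxcl10 was higher in 22 of 44 tumour-like clusters and sub-clusters with at least 30 UMIs, and lower in 8. It was also higher in the cluster led by Pnlip and Try4. Among phagocytes the lower ones were those led by Plcb1 and Vcan (ratio 0.90), Fcrls and Ptprm (0.92), Adamdec1 and Ccl24 (0.85), Gpnmb and Mmp8 (0.59), and Ly6i and Nos2 (0.87). Among granulocytes they were those led by Slc24a3 and Tgm1 (0.66) and by Tgtp1 and Gbp2 (0.66). Regulatory T-like cells had a ratio of 0.59, and 5 cells held 84.5% of their Cxcl10 in the shV library. These differences between sub-clusters were not tested.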

How the results depend on the processing

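Over 9 to 11 settings each, 110 of 161 recomputed values stayed within their counting interval, 47 moved out of it, and 4, all of ratios whose interval excluded 1, changed direction. For a ratio whose interval holds 1, a crossing of 1 was not counted as a change of direction. Removing background RNA and averaging over cells were among the settings, and those leaving out clusters nearly confined to 1 library or subtracting the B-like (ligands) or granulocyte-like (receptor) level were chosen after seeing the data. For Cxcl10 in monocyte-macrophage-like cells (1.06), the ratio turned to 0.973 when either the lowest class or the B-like level was subtracted, and it was 1.10 with the highest 8% of doublet scores removed and 1.11 as a mean over cells. Cxcl9 in the same cells (1.59) was 1.66 without an upper UMI limit, 1.68 with the doublet scores, 1.80 as a mean over cells and 1.48 after B-like subtraction. For Cxcl10 in tumour-like cells (1.31) these were 1.77, 1.495, 1.25 and 1.22, with 1.66 at clustering resolution 2, 1.22 after subtracting the lowest class and 1.25 without clusters nearly confined to 1 library. Cxcl9 in dendritic-like cells (3.70) was 4.72 after subtracting the lowest class. Cxcl10 in granulocyte-like cells (1.5) was 1.42 relative to the median ratio of genes with at least 50 CPM, which was 1.06. The monocyte-macrophage-like share of Cxcl9 UMIs in the shV library (28.5%) was 22.1% without an upper UMI limit, 27.7% with lower minimums, 27.8% with each library clustered alone and 29.4% after either subtraction. The T-like and NK-like share of Cxcr3 in the shZEB1-labelled library (60.1%) was 42.2% at resolution 2, where unnamed clusters held 46 Cxcr3 UMIs, and 77.7% after subtraction. Cxcl10 in fibroblast-like cells (1.29) turned to 0.999 without an upper UMI limit and 0.902 at resolution 2, where cells moved between the tumour-like and fibroblast-like classes (fibroblast-like cells 361 and 379, then 934 and 614, and 818 and 541). Cxcl9 in endothelial-like cells (1.02, an interval that holds 1) ranged from 0.81 with the doublet scores to 1.2 as a mean over cells and was also below 1 after subtracting the lowest class (0.995) or the B-like level (0.973). Cxcl9 in granulocyte-like cells (2.58) ranged from 2.43 to 4.9, and Cxcl10 in dendritic-like cells (1.74) from 1.69 to 4.57. Cxcr3 in T-like cells (0.83) ranged from 0.80 to 0.87. Where no cell count is given, the cause was not tested. No paired analysis was possible because each group was 1 library without a replicate number. With 105 and 258 Cxcr3 UMIs in all, only large differences of the receptor between sub-clusters could be seen.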

Other observations

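Pericyte-like cells, too few for the comparisons, numbered 14 and 10. They held 12.1 CPM of Cxcl9 in the shV library (3 UMIs) and 926 in the shZEB1-labelled library, where 5 cells held 97.6% of the UMIs. Their Cxcl10 stood at 137 and 860 CPM. Barcodes over 60000 UMIs, left out of the cells, numbered 289 and 217 and held 196 and 481 CPM of Cxcl9 and 221 and 413 of Cxcl10, with 3 and 8 Cxcr3 UMIs.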
